A study of Mus musculus with 9 samples.

Results

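Type I interferon-stimulated genes were followed by name in mouse lung mRNA. The set was drawn up as 43 named genes, and 41 of them were matched by symbol among the 21884 genes of the deposited table. Mx1 and Mx2 are not analysed here. All 41 matched genes passed the filter on low values, which asked for 0.5 or more FPKM (fragments scaled to transcript length and to the library total) in 3 or more of the 9 libraries.

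The lungs came from male BALB/c mice that were 6 weeks old on arrival, in 3 groups of 3 libraries. The labels number the libraries but do not state for each that it came from a separate mouse, so n = 3 counts libraries and their spread may be partly technical. Naive mice were given saline on the schedule of the others. OVA mice were injected into the peritoneum with 50 µg ovalbumin and 1 mg aluminium hydroxide, once on each of days 0, 7 and 14. They later had 400 µg ovalbumin instilled into the nose on each day from 21 to 27. OVA+PM2.5 mice followed the OVA schedule and also received nasal drops of fine particulate matter each day, beginning 7 days before the first injection. Lungs were taken on day 28. None of the 3 groups had particles without ovalbumin, so the particle comparison is between 2 sensitised and challenged groups. The spread behind each p-value is that among these libraries.

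Type I interferons signal through the receptor chains Ifnar1 and Ifnar2, the kinases Jak1 and Tyk2, and transcription factors that include Stat2. With Irf9, Stat2 takes part in a complex that binds a DNA element, the interferon-stimulated response element (ISRE), upstream of the genes it induces. The induced genes encode nucleic acid sensors, antiviral effectors, GTPases and regulators of the response itself, and many are transcribed at a low constant level in uninfected tissue.

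The promoters below show the ISRE letters in 6 of the genes that had a match, and the choice of the 6 used their levels in these lungs. They are the 250 bases upstream of the start in RefSeq, on build GRCm38.p6, written 5′ to 3′ on the gene's own strand. The 6 genes have the smallest p in OVA against Naive among those with a match. Capitals mark every match to the ISRE letters, GAAA, any 2 bases and GAAA, read on both strands, with overlapping matches run together.

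Isg15 (chr4:156200819-156201068, minus strand): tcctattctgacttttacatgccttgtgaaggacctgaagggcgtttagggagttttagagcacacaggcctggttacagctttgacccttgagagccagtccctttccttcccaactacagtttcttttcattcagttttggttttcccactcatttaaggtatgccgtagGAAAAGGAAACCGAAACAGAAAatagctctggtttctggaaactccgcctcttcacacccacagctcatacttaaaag
Ifit1 (chr19:34640639-34640888, plus strand): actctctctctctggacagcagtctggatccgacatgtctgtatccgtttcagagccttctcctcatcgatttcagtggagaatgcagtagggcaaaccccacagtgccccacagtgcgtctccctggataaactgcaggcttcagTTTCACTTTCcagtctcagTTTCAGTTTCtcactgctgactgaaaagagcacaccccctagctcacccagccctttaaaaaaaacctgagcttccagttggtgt
Bst2 (chr8:71537473-71537722, minus strand): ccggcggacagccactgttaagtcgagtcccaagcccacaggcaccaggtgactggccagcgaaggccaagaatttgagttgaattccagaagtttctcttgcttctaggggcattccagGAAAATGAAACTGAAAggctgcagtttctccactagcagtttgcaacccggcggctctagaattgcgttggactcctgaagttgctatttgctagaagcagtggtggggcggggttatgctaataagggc
Ifit3 (chr19:34583279-34583528, plus strand): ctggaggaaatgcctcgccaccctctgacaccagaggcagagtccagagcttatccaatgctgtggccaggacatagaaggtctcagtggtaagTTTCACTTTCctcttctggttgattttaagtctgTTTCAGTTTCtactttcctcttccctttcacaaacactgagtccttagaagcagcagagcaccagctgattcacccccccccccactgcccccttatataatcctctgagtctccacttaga
Stat2 (chr10:128270248-128270497, plus strand): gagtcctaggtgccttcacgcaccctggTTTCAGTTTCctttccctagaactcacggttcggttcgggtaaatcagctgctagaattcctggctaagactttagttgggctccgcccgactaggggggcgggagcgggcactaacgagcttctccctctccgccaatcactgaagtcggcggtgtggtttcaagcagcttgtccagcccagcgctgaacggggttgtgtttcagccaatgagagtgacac
Gbp3 (chr3:142559794-142560043, plus strand): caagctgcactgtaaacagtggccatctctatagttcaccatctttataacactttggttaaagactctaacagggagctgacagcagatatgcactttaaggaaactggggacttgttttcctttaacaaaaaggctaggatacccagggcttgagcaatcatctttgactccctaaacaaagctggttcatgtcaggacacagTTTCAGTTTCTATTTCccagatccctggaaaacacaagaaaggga

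In Isg15 the 3 overlapping matches lay between 56 and 78 bases upstream of the start, in Gbp3 between 29 and 45, and in Stat2 between 212 and 222. A window was matched for 34 of the 41 genes. The ISRE letters were found in 17 of the 34 (50%), against 936 of 27025 genes in the whole promoter table (3.46%). The letters TTCNNNGAA, a gamma-activated site, were found on either strand in 5 of the 34 (14.7%) and in 8.13% of all genes. The median log2 difference between OVA and Naive was −1.53 for genes with the ISRE letters and −1.40 for those without (n = 17 each). A match is a description of letters in this window and not a measured binding site.

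The libraries were not alike in tissue content. Recovered totals were 10801553 to 15458690 fragments per library. Alveolar epithelial markers (10 genes) summed to 13177 to 23175 FPKM in Naive and 4589 to 13679 in OVA, but to 165, 8334 and 679 in OVA+PM2.5 replicates 1, 2 and 3. Skeletal muscle markers summed to 15770 FPKM in OVA+PM2.5 replicate 1, heart markers to 5163 in replicate 2 and fat markers to 3351 in replicate 3, against at most 6.13, 307 and 110 in any Naive or OVA library. Thymus markers summed to 294 FPKM in Naive replicate 1 and to at most 22.1 elsewhere. Values of OVA+PM2.5 are therefore given library by library for the genes chosen for single-library values, and elsewhere as means or ranges.

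Interferon-stimulated genes were expressed at lower levels in OVA than in Naive lungs across nearly every role. Of the 41 genes, 34 fell and 0 rose (limma on log2 values with Benjamini-Hochberg adjustment over 12982 genes, threshold 0.05), where 3.91% of all genes tested fell and 2.98% rose. Their median difference was −1.41 on the log2 scale, with quartiles of −2.10 and −0.98, beside a median of −0.11 for all genes. In 38 of the 41, every OVA library lay below every Naive library, as was so for 22.4% of all genes. At least 4-fold lower levels (a log2 difference of −2 or less) were reached by 12 genes. The number of calls depended on the fit. When all 9 libraries shared 1 estimate of spread, 0 of the 41 passed (lowest limma adjusted p = 0.057). In that fit 0.0154% of all genes were called lower. An unadjusted p below 0.05 was found there for 37 of the 41 genes and for 1474 of all 12982 (limma). Without Naive replicate 3, 6 were called, namely Isg15, Ifi27l2a, Irf7, Rtp4, Xaf1 and Phf11d. That library had the highest level of all 9 for 38 of the 41 genes. The same 6 and 2 others, Ifi44 and Oasl2, were called without Naive replicate 1. Calls over all genes also dropped, from 508 lower and 387 higher to 17 and 4 without Naive replicate 3. They came to 27 and 10 without Naive replicate 1. All 41 differences were below 0, here and under each of the alternatives run, as were 62.7% of those of all genes.

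**Figure D1:**
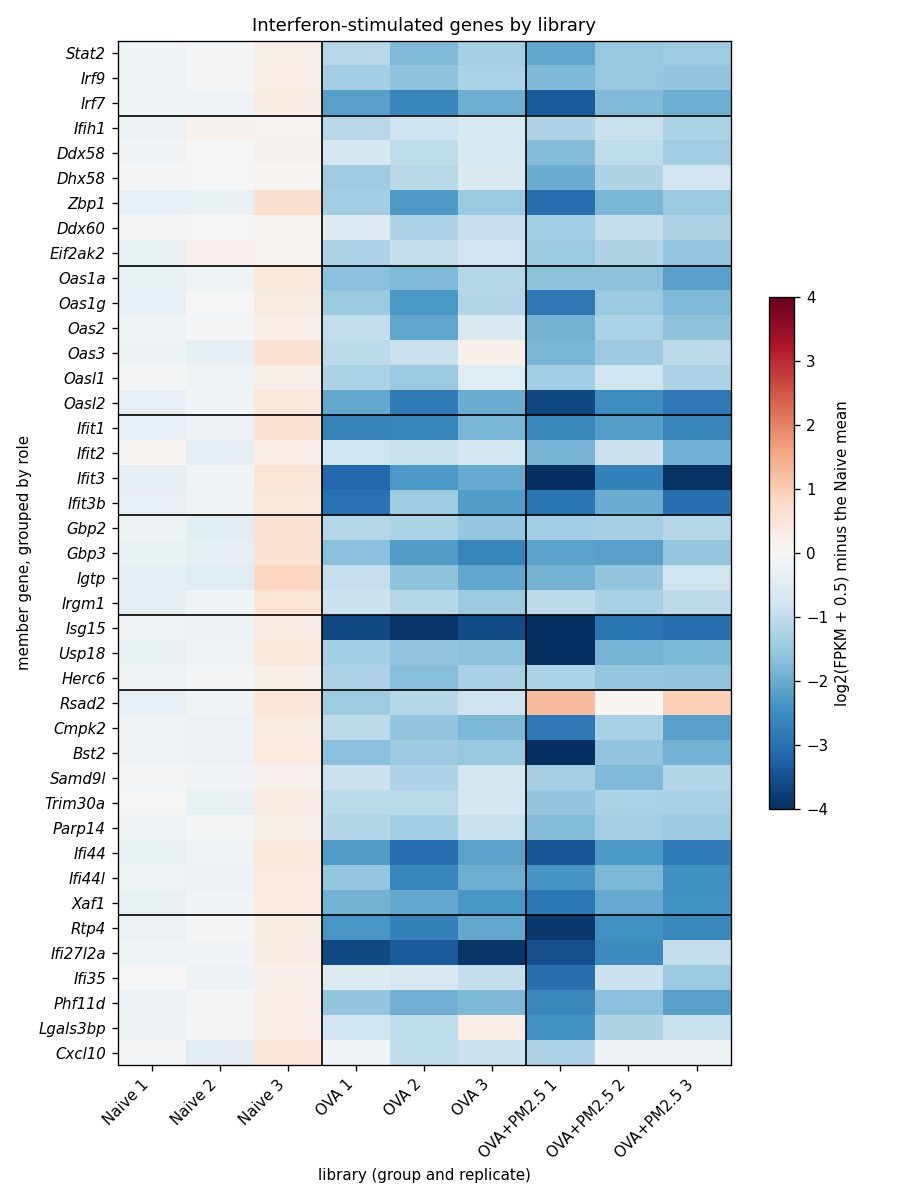
Level of each of the 41 genes (rows, grouped by role) in the 9 libraries (columns), as log2(FPKM + 0.5) minus the gene's mean over the Naive libraries. Colours saturate beyond 4 log2 units in either direction. Naive columns are near 0, OVA columns are below 0 for nearly all genes with library medians of −1.35, −1.59 and −1.34, and Rsad2 stands apart in the OVA+PM2.5 columns.

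The transcription factors that drive the response were lower, and all 3 of those listed fell. Beside this count and each count by role in the paragraphs below, 3.91% of all genes tested fell. In the fit of all 9 libraries 0 genes of the set passed in any role. Irf7, which induces further interferon and is itself interferon-induced, stood at 7.32, 7.51 and 10.6 FPKM in Naive replicates 1 to 3, at 1.49, 0.919 and 1.80 in OVA, and at 0.355, 2.08 and 1.81 in OVA+PM2.5. The lowest Naive value was above the highest of the other 6 libraries, and the OVA difference was −2.25 ± 0.23 (log2, SE; limma adjusted p = 0.00899). Irf9, the DNA-binding partner of Stat2, stood at 9.90, 10.6 and 13.4 FPKM in Naive, at 4.11, 3.35 and 4.42 in OVA, and at 2.87, 3.60 and 3.39 in OVA+PM2.5. It fell by 1.40 on the log2 scale in OVA (SE 0.17, limma adjusted p = 0.0158), with OVA and OVA+PM2.5 libraries overlapping each other. Stat2, which carries the transactivating domain of the complex, read 9.56, 10.2 and 12.7 FPKM in Naive, 4.68, 2.78 and 3.93 in OVA, then 2.15, 3.47 and 3.68 in OVA+PM2.5. Its difference of −1.41 ± 0.21 between OVA and Naive was of the same size as that of Irf9 (limma adjusted p = 0.0201).

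Isg15 had the largest difference of the set. This ubiquitin-like modifier, which is conjugated to proteins during the interferon response and also secreted, stood at 123, 118 and 168 FPKM in Naive, at 10.5, 8.59 and 10.9 in OVA, and at 1.83, 17.2 and 16.4 in OVA+PM2.5. The mean was 137 ± 27.5 FPKM in Naive and 9.97 ± 1.21 in OVA (SD, n = 3), a ratio of 13.7, and the log2 difference was −3.70 ± 0.19 (limma adjusted p = 0.000843; 0.122 in the fit of all 9 libraries). The other genes of the Isg15 system fell less. Herc6, the main Isg15 ligase in mouse, went from 3.03, 3.17 and 3.97 FPKM in Naive to 1.14, 0.698 and 1.09 in OVA (log2 difference −1.41 ± 0.18, limma adjusted p = 0.0181), and stood at 1.11, 0.830 and 0.793 in OVA+PM2.5. Usp18, the protease that removes Isg15 and damps receptor signalling, stood at 17.9, 20.0 and 29.5 FPKM in Naive, at 8.18, 6.97 and 6.74 in OVA, and at 0.867, 5.69 and 5.92 in OVA+PM2.5. Its 3 groups did not overlap, and it fell by 1.53 on the log2 scale in OVA (SE 0.21, limma adjusted p = 0.0188).

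**Figure D2:**
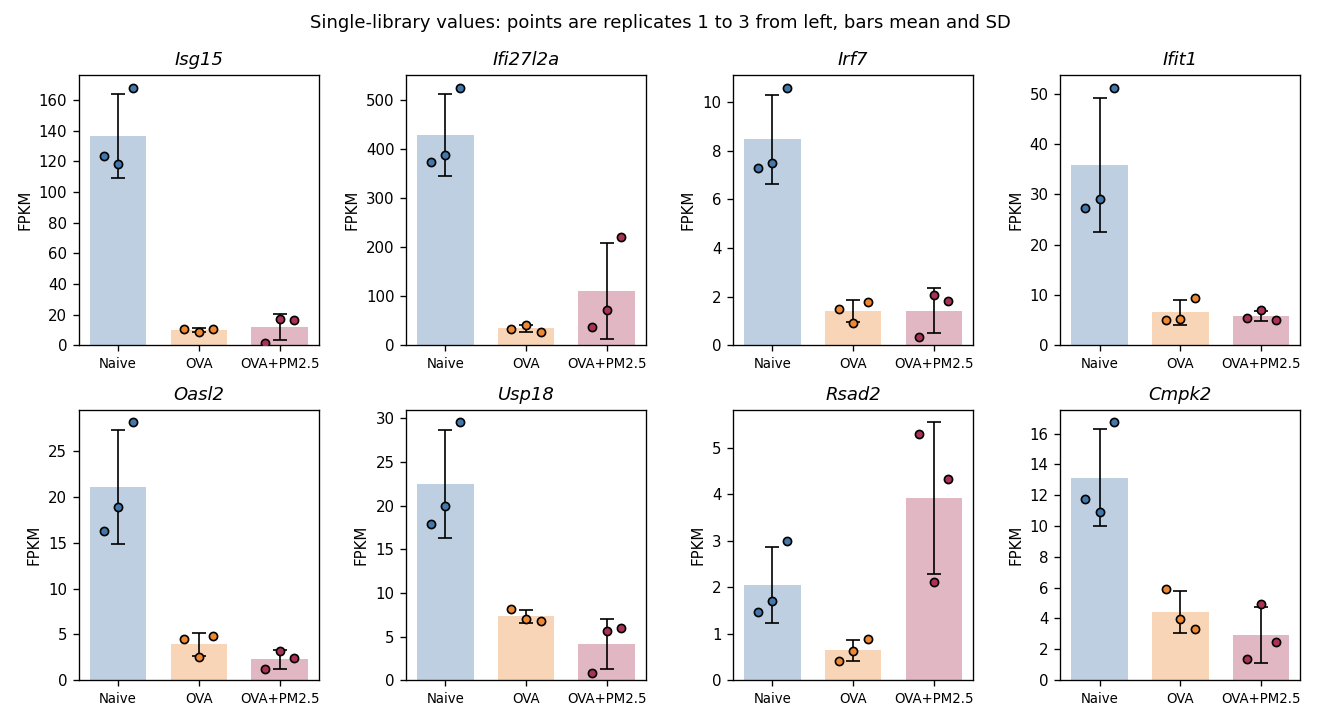
FPKM of 8 genes by group: points are replicates 1 to 3 from left, bars the mean and error bars the SD (n = 3). OVA means are below Naive means in all 8 panels, from 137 to 9.97 FPKM for Isg15, and in the Rsad2 panel the 3 OVA+PM2.5 points lie above the OVA points.

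All 6 nucleic acid sensors fell, by 0.78 to 1.71 on the log2 scale. Eif2ak2, the kinase PKR that halts translation when it binds double-stranded RNA, stood at 11.5, 15.5 and 14.8 FPKM in Naive, at 5.63, 6.90 and 7.97 in OVA, and at 4.58, 5.69 and 4.46 in OVA+PM2.5. Its difference between OVA and Naive was −0.98 ± 0.18 (limma adjusted p = 0.0306). Zbp1, a sensor of Z-form nucleic acids that triggers cell death, read 7.72, 7.83 and 15.5 FPKM in Naive, 3.49, 1.65 and 3.18 in OVA, then 0.775, 2.38 and 3.20 in OVA+PM2.5. Naive replicate 3 was about the sum of the other Naive libraries, and the difference in OVA was −1.71 ± 0.33 (limma adjusted p = 0.0325). Ddx60, a helicase linked to RNA sensing, had the largest p of these genes, with 1.94, 2.05 and 2.29 FPKM in Naive, 1.30, 0.604 and 0.869 in OVA, 0.495, 0.838 and 0.619 in OVA+PM2.5, and a difference of −0.89 ± 0.20 (limma adjusted p = 0.0449). The cytosolic RNA sensors Ifih1, Ddx58 (which encodes RIG-I) and Dhx58, which regulates both, differed by −0.84, −0.78 and −1.03 on the log2 scale.

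Of the oligoadenylate synthetase family, whose active enzymes switch on RNase L, 3 of 6 fell. Oasl2 stood at 16.3, 18.9 and 28.1 FPKM in Naive, at 4.55, 2.5 and 4.79 in OVA, and at 1.18, 3.23 and 2.43 in OVA+PM2.5. Its log2 difference in OVA was −2.29 ± 0.28 (limma adjusted p = 0.0158). Oas1a, a synthetase, stood at 20.1, 21.5 and 32.0 FPKM in Naive, at 7.22, 6.71 and 10.5 in OVA, and at 7.27, 7.42 and 4.93 in OVA+PM2.5, with a difference of −1.53 ± 0.24 (limma adjusted p = 0.0204). In both genes the Naive libraries were clear of the rest. Oas3, the largest synthetase, had 1.70, 1.44 and 3.23 FPKM in Naive, 0.686, 0.869 and 2.39 in OVA, then 0.214, 0.408 and 0.705 in OVA+PM2.5. OVA replicate 3 exceeded 2 of the 3 Naive libraries, and the difference of −0.59 did not pass (limma adjusted p = 0.371). Oas2 (−1.22, limma adjusted p = 0.0845) and Oasl1, which represses Irf7 translation in mouse (−1.08, 0.0582), also missed the threshold, and Oas1g fell by 1.64.

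All 4 genes of the IFIT family, whose proteins bind viral RNA that lacks host cap marks, fell. Ifit1 stood at 27.2, 29.0 and 51.2 FPKM in Naive, at 5.02, 5.24 and 9.37 in OVA, and at 5.38, 7.06 and 5.11 in OVA+PM2.5 (OVA minus Naive −2.36 ± 0.31, limma adjusted p = 0.0184). Ifit3, which stabilises binding of RNA by Ifit1 in human cells, stood at 88.0, 106 and 165 FPKM in Naive, at 12.5, 22.8 and 28.2 in OVA, and at 3.15, 17.4 and 7.02 in OVA+PM2.5 (−2.49 ± 0.34, limma adjusted p = 0.0189). Ifit2 moved least, with 13.2, 9.72 and 15.2 FPKM in Naive, 6.97, 6.56 and 7.55 in OVA, 3.08, 6.75 and 2.97 in OVA+PM2.5, and a difference of −0.79 ± 0.19 (limma adjusted p = 0.0484). For each of these genes every Naive library was above every OVA library. Fragments of close paralogs may be shared, because Ifit3 and Ifit3b transcripts were 98.0% identical over 1697 aligned bases and Oas1a and Oas1g 97.5% over 1860, so the split between them is uncertain.

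Among interferon-induced GTPases 3 of the 4 analysed fell. Gbp3, a guanylate-binding protein that attacks membranes around intracellular pathogens, stood at 13.7, 12.97 and 25.7 FPKM in Naive, at 4.91, 3.16 and 2.26 in OVA, and at 3.34, 3.30 and 5.36 in OVA+PM2.5 (OVA minus Naive −2.17 ± 0.33, limma adjusted p = 0.0201). Gbp2, of the same family, stood at 29.5, 25.8 and 53.1 FPKM in Naive, at 15.4, 14.1 and 11.6 in OVA, and at 13.1, 13.3 and 15.2 in OVA+PM2.5 (−1.31 ± 0.28, limma adjusted p = 0.0374). Igtp, an immunity-related GTPase, had 18.9, 17.9 and 46.0 FPKM in Naive, 12.9, 7.94 and 5.52 in OVA, then 6.35, 8.01 and 14.3 in OVA+PM2.5, and its difference of −1.54 ± 0.42 did not pass (limma adjusted p = 0.0694). In each of the 3, Naive replicate 3 was far above the other Naive libraries and the Naive and OVA libraries still did not overlap. Irgm1, which steers immunity-related GTPases away from host membranes, fell by 1.16 on the log2 scale (limma adjusted p = 0.0462).

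All 9 of the other antiviral effectors fell in OVA. Xaf1, known in human cells as a pro-apoptotic antagonist of the caspase inhibitor XIAP, stood at 11.4, 12.97 and 18.7 FPKM in Naive, at 3.40, 2.99 and 2.39 in OVA, and at 1.47, 3.13 and 2.20 in OVA+PM2.5 (OVA minus Naive −2.10 ± 0.22, limma adjusted p = 0.00927). Ifi44, an interferon-induced antiviral protein, stood at 13.2, 14.5 and 22.4 FPKM in Naive, at 3.09, 1.55 and 3.29 in OVA, and at 1.06, 2.92 and 1.93 in OVA+PM2.5 (−2.47 ± 0.29, limma adjusted p = 0.0150). Both were clear of the Naive range in all 6 treated libraries. Ifi44l, its neighbour on chromosome 3, fell by 2.04. The tethering protein Bst2, which holds budding virus at the cell surface, fell by 1.55 from a mean of 159 ± 39.1 FPKM, and Cmpk2, a mitochondrial nucleotide kinase, by 1.48. The ADP-ribosyltransferase Parp14 fell by 1.14, the Nf-kB regulator Trim30a by 0.96 and the growth-restricting antiviral gene Samd9l by 0.94.

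Of the remaining induced genes 3 of 6 fell. Ifi27l2a, a small hydrophobic interferon-induced protein with the highest FPKM of the set in Naive lungs, stood at 374, 389 and 526 FPKM in Naive, at 34.2, 41.2 and 28.1 in OVA, and at 37.0, 72.1 and 221 in OVA+PM2.5. It was 12.5 times as high on average in Naive as in OVA (log2 difference −3.62 ± 0.22, limma adjusted p = 0.00114). Rtp4, a receptor transporter that also limits RNA viruses, stood at 18.7, 20.9 and 27.3 FPKM in Naive, at 3.97, 2.95 and 4.91 in OVA, and at 1.05, 3.73 and 3.23 in OVA+PM2.5 (OVA minus Naive −2.37 ± 0.22, limma adjusted p = 0.0059). Phf11d, an interferon-inducible PHD-finger gene, fell by 1.75 (limma adjusted p = 0.00899). Lgals3bp, a secreted glycoprotein that binds galectins, had 41.9, 46.4 and 58.9 FPKM in Naive, 27.6, 23.6 and 58.3 in OVA, then 8.75, 20.9 and 26.0 in OVA+PM2.5. OVA replicate 3 lay inside the Naive range, and the difference of −0.52 did not pass (limma adjusted p = 0.367). The T cell chemokine Cxcl10 stayed between 0.456 and 2.26 FPKM in Naive and OVA with overlapping groups (−0.67, limma adjusted p = 0.226), and Ifi35 differed by −0.71 (0.0544).

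**Figure D3:**
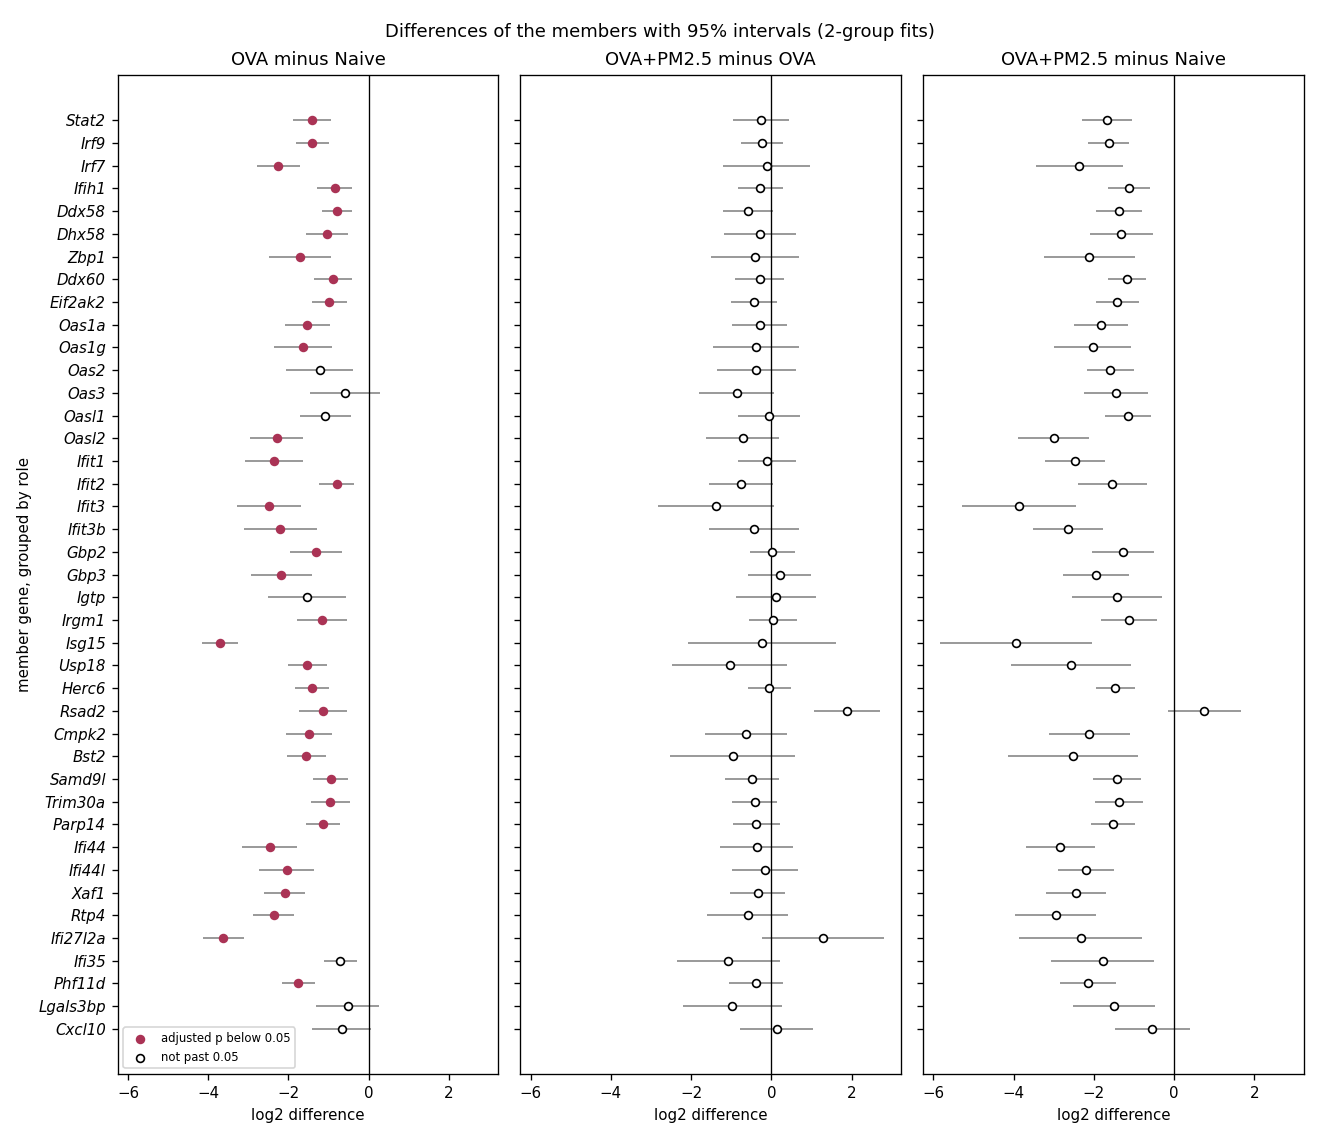
Log2 difference of each gene with its 95% interval in the 3 comparisons, from limma fits of 2 groups each; filled points passed an adjusted p of 0.05. OVA minus Naive has 34 filled points, all below 0. OVA+PM2.5 minus OVA has none, and only the interval of Rsad2 excludes 0. Over all genes, 2393 of 12982 had an unadjusted p below 0.05 in that comparison (limma).

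Interferon itself was barely detected. Of 21 interferon ligand genes listed, 0 passed the filter and 17 were at 0 FPKM in every library, Ifnb1 among them. The remaining 4 were Ifna4 (0.118 FPKM in OVA+PM2.5 replicate 2 alone), Ifnab (0.0601 and 0.260 in OVA replicates 2 and 3), Ifnl2 (0.814 in OVA+PM2.5 replicate 1) and the type II interferon Ifng. Ifng came to 0.246 ± 0.106 FPKM in Naive, 0.253 ± 0.227 in OVA and 0.0578 ± 0.0501 in OVA+PM2.5, from at most 10 recovered fragments in a library. A ligand difference was not detectable at this depth.

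Among receptor and signalling genes, Irf1, a transcription factor induced by interferons, fell by 0.91 on the log2 scale in OVA (limma adjusted p = 0.0311). Receptor chains did not pass: Ifnar1 had means of 7.20 ± 1.07 FPKM in Naive and 5.26 ± 0.675 in OVA (−0.42, limma adjusted p = 0.16) and Ifnar2 of 7.79 ± 0.617 and 5.03 ± 0.758 (−0.59, 0.0671). The kinases Jak1 and Tyk2 differed by −0.19 and −0.15, the lambda receptor chain Ifnlr1 by 0.37, its partner Il10rb by 0.06, and the gamma receptor chains Ifngr1 and Ifngr2 by −0.13 and −0.28, with limma adjusted p between 0.177 and 0.823. A list of 16 genes upstream of the ligands held nucleic acid receptors, adaptors, kinases and transcription factors. The sensors of the set were not on it. Of the 16, 1 fell, where 3.91% of all genes did. This was the RIG-I-activating ligase Trim25 (−0.64, limma adjusted p = 0.0484). Its listed companions included Irf3, the factor that starts interferon transcription (−0.57, 0.0632). Of 13 tested negative regulators 0 passed, among them the RNA-editing enzyme Adar (−0.79, 0.0747) and the kinase inhibitor Socs1 (−1.34, 0.138); 3 of the 13 had an unadjusted p below 0.05, as had 3377 of the 12982 genes tested, and 0 passed in the fit of all 9 libraries.

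Interferon-stimulated genes outside the set of 41 were also lower in OVA. Of 67 tested, 21 fell and 0 rose, beside 3.91% of all genes that fell, with a median difference of −0.72. In the fit of all 9 libraries 0 of the 67 passed (lowest limma adjusted p = 0.0986). The 4 with the smallest p were Phf11b, a relative of Phf11d (−1.43, limma adjusted p = 0.0184), Ube2l6, the conjugating enzyme for Isg15 (−1.62, 0.0194), the nuclear body gene Sp100 (−1.14, 0.0200) and the DNA-binding Ifi203 (−1.37, 0.0201). Ifitm3, a membrane protein that blocks virus entry, had the highest level of those that fell, with 684, 648 and 1089 FPKM in Naive, 226, 283 and 256 in OVA, then 61.4, 275 and 70.7 in OVA+PM2.5. It was chosen after its values were seen, and its difference between OVA and Naive was −1.63 (limma adjusted p = 0.0214).

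**Figure D4:**
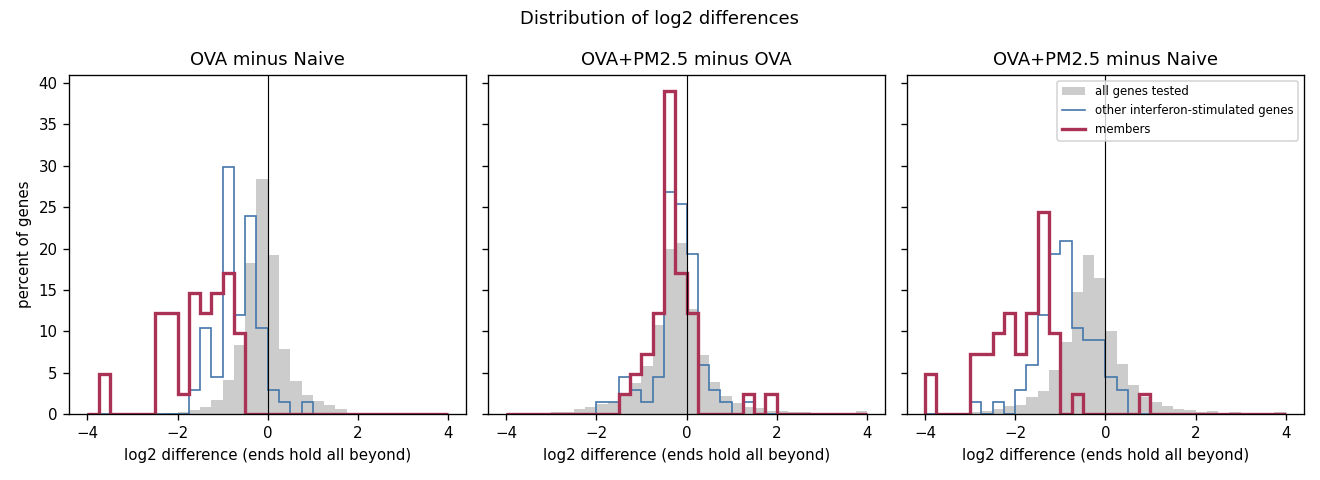
Share of genes (percent, vertical) by log2 difference (horizontal, end bins hold all beyond) for all 12982 genes tested, 67 other interferon-stimulated genes and the 41 set members, in 3 comparisons. In OVA minus Naive all genes centre near −0.11, the other interferon-stimulated genes near −0.72 and the set near −1.41; in OVA+PM2.5 minus OVA the 3 distributions largely overlap.

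In whole lung, fewer cells of a type and less RNA per cell cannot be told apart, and markers of some cell types moved with these genes. For each count of markers that fell in OVA, the share of all genes tested that fell was 3.91%. Natural killer cell markers (10 named, Klra8 at 0 in every library) summed to 48.6 to 128 FPKM in Naive, 2.32 to 5.36 in OVA and 1.13 to 7.12 in OVA+PM2.5, and 5 of the 7 tested fell in OVA. Endothelial markers (10 genes, none at 0) summed to 717 to 1095, 217 to 669 and 61.0 to 592 FPKM in the same order, and 2 of 10 fell. Their part in the result was not tested. In OVA replicates 1 to 3 the endothelial sums were 217, 669 and 456 FPKM. Neutrophil markers (8 genes) summed to 53.2, 1642 and 2515 FPKM in the same libraries. The medians of the set there were −1.35, −1.59 and −1.34 log2 units from the Naive mean. The part of either list in these medians was not tested. Of 8 patrolling monocyte markers, which summed to 79.4 to 132 FPKM in Naive and 35.0 to 80.0 in OVA, 1 fell. It was Nr4a1, which is counted again among the immediate early genes below. Most of the sum was Ace, at 47.2 to 83.2 FPKM in Naive and 20.7 to 60.6 in OVA with overlapping groups. Markers of plasmacytoid dendritic cells, known for high interferon output (10 genes, none at 0 in every library), summed to 18.9 to 31.5 FPKM in Naive, 13.03 to 30.5 in OVA and 48.7 to 363 in OVA+PM2.5, and 0 of the 4 tested passed in OVA against Naive. Their defining marker Siglech stood between 0.0667 and 0.392 FPKM in the 9 libraries, below the filter. Spib stood at 1.49 to 2.64 FPKM in Naive and 2.96 to 8.54 in OVA. Its difference of 1.07 did not pass (limma adjusted p = 0.107). The other tested markers of this list, Cox6a2, Tcf4 and Lair1, differed by −0.86, −0.24 and −0.10. Most of the sum in OVA+PM2.5 replicates 1 and 2 was Cox6a2 (123 and 357 FPKM), which is also a striated muscle gene. Immediate early genes, which respond within minutes to stimulation and tissue handling, summed to 264 to 358 FPKM in Naive and 114 to 151 in OVA, and 6 of 9 tested fell. Their part was likewise not tested.

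Adding particles to ovalbumin gave no call in either direction. In OVA+PM2.5 against OVA, 0 of the 41 genes and 0% of all genes passed; in the fit of all 9 libraries 0.193% of all genes passed higher and 0.0231% lower, and 0 of the 41 (limma). Of the 41, 34 differences were below 0 and 7 above, where 68.7% of all genes were below 0, and the median was −0.37 against −0.23 for all genes. Intervals were wide, with a median half-width of 0.83 log2 units, and 22 of the 41 included a level lower by 1 log2 unit. Groups did not overlap for 2 genes that were lower, Usp18 (−1.04, interval −2.47 to 0.40) and Trim30a (−0.42, −0.98 to 0.15), and 1 that was higher, Rsad2; the shares among all genes were 20.1% and 6.86%. OVA+PM2.5 replicate 1, with the muscle transcripts, was the lowest of all 9 libraries for 24 of the 41 genes. Without it the difference of Usp18 was −0.30 and that of Isg15 was 0.73 in place of −0.24. The 4 GTPases stood between 0.03 and 0.22 above OVA on the log2 scale. Without replicate 2, Ifit2, Ifit3 and Rsad2 were called, when 13% of all genes were.

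Rsad2 stood apart from the other 40 genes in OVA+PM2.5, where its interval against OVA was the 1 that excluded 0. This gene encodes viperin, an enzyme that makes a chain-terminating nucleotide, and it lies beside Cmpk2 on chromosome 12. It stood at 1.46, 1.70 and 2.98 FPKM in Naive, at 0.422, 0.628 and 0.876 in OVA, and at 5.29, 2.11 and 4.32 in OVA+PM2.5. It fell by 1.13 on the log2 scale in OVA (SE 0.26, limma adjusted p = 0.0451), and every OVA+PM2.5 library was above every OVA library. The difference of 1.89 ± 0.35 between OVA+PM2.5 and OVA (interval 1.06 to 2.72) did not pass, with a limma adjusted p of 0.239, or 0.0609 in the fit of all 9 libraries, and ranged from 1.53 to 2.64 over the alternatives. Its neighbour Cmpk2 stood at 5.93, 3.96 and 3.34 FPKM in OVA and at 1.35, 4.96 and 2.46 in OVA+PM2.5, with overlapping groups and a difference of −0.63. Ifi27l2a also stood higher on average, at 110 ± 97.8 against 34.5 ± 6.57 FPKM, but its lowest OVA+PM2.5 library lay inside the OVA range (1.29, interval −0.22 to 2.80, limma adjusted p = 0.32). Outside the set, Ube2l6 stood at 10.6, 13.6 and 9.07 FPKM in OVA and at 29.5, 21.6 and 45.2 in OVA+PM2.5 without overlap (1.45, limma adjusted p = 0.239). Muscle, heart or fat transcripts were raised in each OVA+PM2.5 library, and their part in these values was not tested.

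Measured from Naive lungs, the set was also low after ovalbumin with particles. This comparison shares its OVA+PM2.5 libraries with the one before and its Naive libraries with the first, so it is not a separate line of data. In OVA+PM2.5 against Naive 0 of the 41 passed in the fit of 2 groups, as did 0% of all genes (limma adjusted p 0.11 to 0.375), and 35 fell in the fit of all 9 libraries, where 5.59% of all genes fell. OVA+PM2.5 libraries were all below the Naive libraries for 39 of the 41, the exceptions being Rsad2 and Cxcl10, against 33.2% of all genes. The median difference was −1.67, beside −0.33 for all genes, and 40 of the 41 differences were below 0, against 72.9% of all genes. Library medians of the set were −2.08, −1.51 and −1.55 log2 units from the Naive mean in OVA+PM2.5 replicates 1 to 3, and those of all genes −0.43, −0.17 and −0.42. Alveolar epithelial markers summed to 165, 8334 and 679 FPKM in the same libraries, and their part in the level of the set was not tested. Isg15 differed by −3.93 ± 0.79 and Ifit3 by −3.88 ± 0.59, with limma adjusted p of 0.111 and 0.110 in the fit of 2 groups and 0.0293 and 0.0248 in the fit of all 9 libraries.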

How the data were processed

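Mouse lung poly(A) RNA was sequenced in 9 libraries after Trizol extraction and NEBNext Ultra library preparation, per the labels' protocols. The authors deposited FPKM per gene. Reads were mapped to GRCm39, per the submitters' processing notes; which aligner and counter produced them is not given in the sources used here. Because FPKM is relative to each library's total, transcripts of other tissues lower all other values of that library.

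The members and gene lists were chosen with earlier results of these data known, and so was the fit of 2 groups per comparison, taken as the main one because OVA+PM2.5 libraries spread more widely. The fit of all 9 libraries is given beside it. Values were tested as log2(FPKM + 0.5) with limma 3.58.1 in R 4.3.3 (lmFit, eBayes with a variance trend, two-sided), with 4 residual degrees of freedom per fit. Genes needed an FPKM of at least 0.5 in at least 3 libraries, which kept 12982. P-values were Benjamini-Hochberg adjusted over these at a threshold of 0.05. Fold changes on this log2(value + pseudocount) scale understate changes of low genes, and an exact permutation test of 3 libraries against 3 cannot go below 0.1.

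Single-library values are given for the 2 members of each role group with the smallest p in OVA against Naive and the one with the largest; other genes named with such values (Ifitm3, Cmpk2, Ube2l6) were added by the pathway rule (up to 4 genes of each pathway list by p) or after their values were seen. A gene that this rule selected is not reported here. FPKM steps gave whole fragments for 17297 of 17298 genes (99.99%, within 0.001 of a whole number), with totals of 10801553 to 15458690; they served for depth and a limma-voom alternative, which called 33 of the 41 members in OVA against Naive. Deviations from the group means correlated between libraries of the same number at −0.171 to 0.278; only 3 of 9 pairs exceeded 0.1, and the fits carry no pairing. The fits were tested on simulated data. Promoters came from RefSeq on GRCm38.p6, matched by symbol; no GRCm39 coordinates are given. Python 3.11.15 with pandas 2.3.3, numpy 2.4.6 and Biopython 1.88 was used elsewhere.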

Additional observations from a re-analysis of the deposited data

How the results depend on the processing

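In OVA against Naive 34 members were called. The count was 0 in the fit of all 9 libraries, 19 with no filter on low values (17848 genes tested) and 22 with median-ratio scaling, and it was 35 with 1 weight per group, 34 with pseudocounts of 0.1 or 1 or a minimum of 1 FPKM, 38 rescaled to a common sum, 23 with quantile normalization and 33 with limma-voom. Leaving out 1 library gave 6 to 25, with 6 without Naive replicate 3, 8 without Naive replicate 1, and 22, 21 and 17 without OVA replicates 1, 2 and 3. With the replicate number as a block 25 were called, and it changed no count in the other comparisons. In OVA+PM2.5 against OVA leaving out 1 library gave 0 to 3 (3 without OVA+PM2.5 replicate 2) and every other setting 0. All 12982 genes had 280 higher and 1412 lower calls in that comparison without OVA+PM2.5 replicate 2. In OVA+PM2.5 against Naive the count was 35 in the fit of all 9 libraries and 25 with 1 weight per group. It was 0 to 33 leaving out 1 library (33 without OVA+PM2.5 replicate 2). Higher and lower calls over all genes were 198 and 726 in the fit of all 9 libraries. They were 147 and 326 with 1 weight per group, and 438 and 2559 without OVA+PM2.5 replicate 2. The difference of Isg15 in OVA+PM2.5 against OVA ranged from −0.73 to 0.73 leaving out 1 library, and was 0.73 without OVA+PM2.5 replicate 1 in place of −0.24. The causes were not tested. Over all genes, OVA against Naive had 387 higher and 508 lower calls, 211 and 1197 rescaled to a common sum, 333 and 236 by median ratios, 267 and 218 by quantiles, and 128 and 179 with the block. All genes had 4 higher and 17 lower calls without Naive replicate 3, and 10 and 27 without Naive replicate 1. The common sum moved the median of all genes from −0.11 to −0.44, and all 41 members stayed below 0 under each setting. The lowest recovered count of a member was 7 fragments (Oas1g, OVA+PM2.5 replicate 1), which limits the precision of low genes there.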

Other observations

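Genes induced mainly by interferon gamma, GTPases, chemokines and related genes kept as a list apart from the set, were also low after ovalbumin, but few passed the test. The set itself holds the GTPases Gbp2, Gbp3, Igtp and Irgm1 and the chemokine Cxcl10, so it shares kinds of genes with this list. Of 21 tested, 3 fell in OVA against Naive and 0 rose, where 3.91% of all genes fell and 2.98% rose. On the lower side 19 of the 21 had an unadjusted p below 0.05 (limma), and the median difference was −1.08. In either direction 3377 of all 12982 genes had such a p. Gbp2b, a guanylate-binding protein, stood at 40.7, 37.6 and 74.7 FPKM in Naive, at 19.7, 14.1 and 13.2 in OVA, and at 16.7, 15.6 and 17.8 in OVA+PM2.5 (OVA minus Naive −1.62, limma adjusted p = 0.0278). The immunoproteasome subunit Psmb10 fell by 1.36 (limma adjusted p = 0.0292) and Gbp7 by 1.74 (0.031), while Irgm2 differed by −1.31 (0.0529). The largest value of Gbp2b, Gbp7, Psmb10 and Irgm2 was in Naive replicate 3. In the fit of all 9 libraries 0 of the 21 passed. In OVA+PM2.5 against OVA 0 passed, and Gbp2b and Gbp7 differed by 0.11 and 0.00 on the log2 scale. Ifng itself, the inducer, rested on 4 to 9 recovered fragments per library in Naive and on 0 to 10 in OVA.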
